A study of Mus musculus with 72 samples.

Results

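The insulin-like growth factor (IGF) genes of cultured mouse follicles were followed under 2 glycosylation forms of follicle-stimulating hormone (FSH). The 10 genes were chosen by symbol: the ligand gene Igf1, the receptor genes Igf1r and Insr, the binding protein genes Igfbp2, Igfbp3, Igfbp4, Igfbp5, Igfbp6 and Igfbp7, and Pappa, whose product cleaves binding proteins. They are 10 of the 56691 genes in the count table and 10 of the 18727 genes tested. The follicles were at the early secondary stage, in which an oocyte is enclosed by granulosa cells, and were kept in culture for 24 h. Their medium held an insulin-transferrin-selenium supplement, so every group, controls included, was exposed to insulin. FSH21 was the hypoglycosylated and FSH24 the fully glycosylated hormone, and the study asked how the glycoforms shape the follicle transcriptome. There were 6 groups of 3 libraries. Numbers 1, 5 and 6 had FSH21 at 1 ng/ml, FSH24 at 1 ng/ml or no FSH (the low-dose controls), and numbers 2, 3 and 4 had FSH21 at 10 ng/ml, FSH24 at 10 ng/ml or no FSH (the high-dose controls). Strain, age and the pooling of follicles were not in the labels. The labels speak of biological replicates but name no animals or cultures, so the p-values rest on the spread among these libraries, and that spread may in part be technical.

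IGF1 is a secreted growth factor that signals through IGF1R, a receptor tyrosine kinase closely related to the insulin receptor INSR. The binding proteins IGFBP2 to IGFBP6 hold IGFs with high affinity outside the cell and limit or deliver them to the receptor, while IGFBP7 binds IGFs only weakly. PAPP-A, the product of Pappa, is a metalloprotease that cuts IGFBP4 and IGFBP5 and so frees IGF. In the mouse ovary granulosa cells make IGF1, which strengthens their response to FSH.

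The gene with the largest change among the 10 was Igfbp5, and the sequence just before its annotated start is shown for that reason (the counts are per gene and do not say where its transcripts begin). Igfbp5 lies on the minus strand of chr1:72857932-72874884 in GENCODE M21 on GRCm38, tail to tail with Igfbp2, with 5457 bases and 0 annotated genes between their ends. The 231 bases before its GENCODE start are given from the RefSeq promoter table (GRCm38.p6, chr1:72874885-72875115, minus strand, 5′ to 3′), with the letters TATTTAA, which resemble the box bound by TBP, in capitals.
Igfbp5 upstream: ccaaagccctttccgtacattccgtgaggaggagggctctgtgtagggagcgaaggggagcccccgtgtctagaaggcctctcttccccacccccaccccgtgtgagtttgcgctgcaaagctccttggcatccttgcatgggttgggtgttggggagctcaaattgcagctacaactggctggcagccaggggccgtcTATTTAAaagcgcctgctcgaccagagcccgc
The run begins 32 bases before the GENCODE start. It was added to the search after the sequence had been seen, and 4.51% of the 32851 mouse promoter windows of 300 bases held it on either strand. Of the 10 genes, 8 had windows in that table, 9 windows in all. The windows follow RefSeq starts, which for Igf1 and for an Igfbp2 window lie 2846 and 884 bases inside the GENCODE gene. The RefSeq starts of Igf1r and Igfbp6 lie before the GENCODE gene. Searched on both strands, 0 of the 9 held TGACG (the core of the cAMP response element, in 20.8% of all windows), TGACGTCA (its full site, 1.79%, which contains that core), GTAAACA (a FOXO motif, 3.65%), TCAAGGTCA (an NR5A motif, 0.423%) or AGATAA (bound by GATA factors, 11.2%). TATAAA, also added later and present in 13.6% of windows, occurred before Igfbp4 and, on the other strand, before Igfbp6. These matches describe letters in a short window and show no binding.

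Library totals ran from 17.5 to 22.5 M counts (M for mega; median 21.4 M). The labelled tissue carried its defining transcripts. Summed over 12 granulosa markers the level was 5465 to 6944 CPM (counts per mega-count of the library total after TMM normalisation) in the high-dose controls, and over 10 oocyte markers 4548 to 4792 CPM. Markers of stroma and smooth muscle were also abundant, at 2782 to 4320 CPM in those controls. Immune cell markers summed to at most 4.89 CPM and red blood cell markers to at most 0.144 CPM in any library. As these are whole follicles, fewer cells of a type and less RNA per cell cannot be told apart.

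With FSH21 at 10 ng/ml 3 of the 10 genes changed, as did 3 of the 10 with FSH24 at that dose: Igfbp5 and Pappa rose and Igf1 fell. A gene was called changed at an adjusted p under 0.05 in edgeR's quasi-likelihood test, and 10.2% of all genes tested were called with FSH21 and 8.42% with FSH24 at this dose. Both comparisons use the same 3 high-dose controls. The median log2 fold change of the 10 genes was -0.07 with FSH21 and -0.14 with FSH24, beside 0.00 over all genes tested. The levels in every library are plotted first, and the fold changes with their intervals after them.

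**Figure D1:**
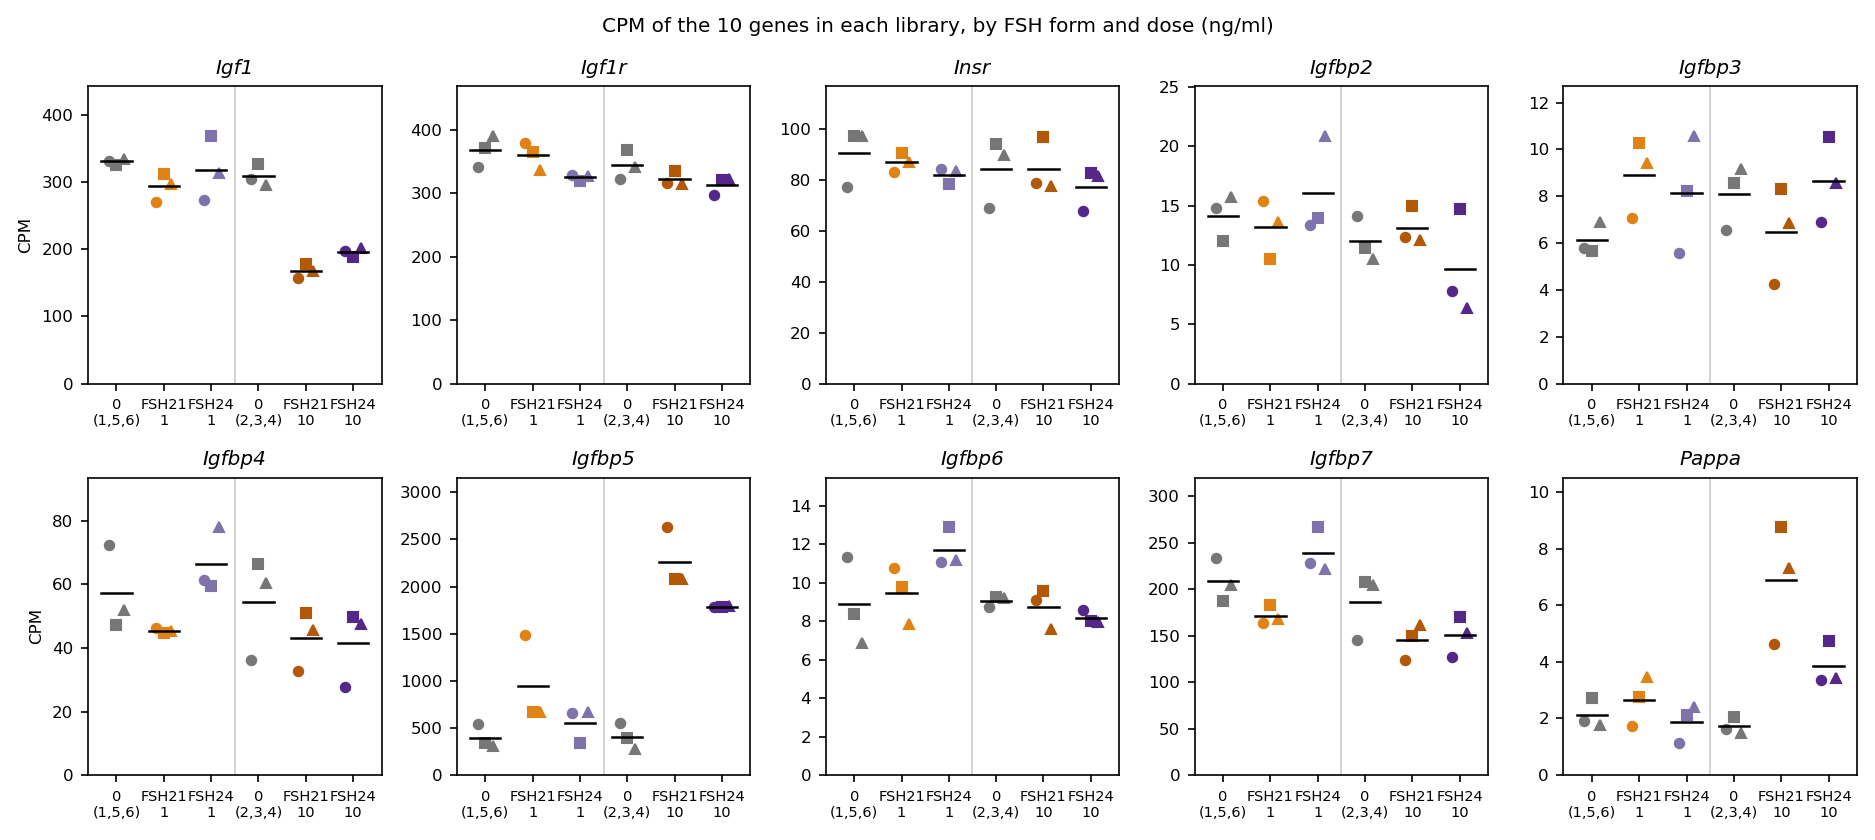
Level of each of the 10 genes in CPM (vertical axes, linear from 0) in each of the 18 libraries, by FSH form and dose in ng/ml. Circles, squares and triangles are the numbers of a set in rising order (1, 5, 6 left of the grey line and 2, 3, 4 right of it), and black lines are group means; Igfbp5 and Pappa stand above and Igf1 below their controls at 10 ng/ml.

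**Figure D2:**
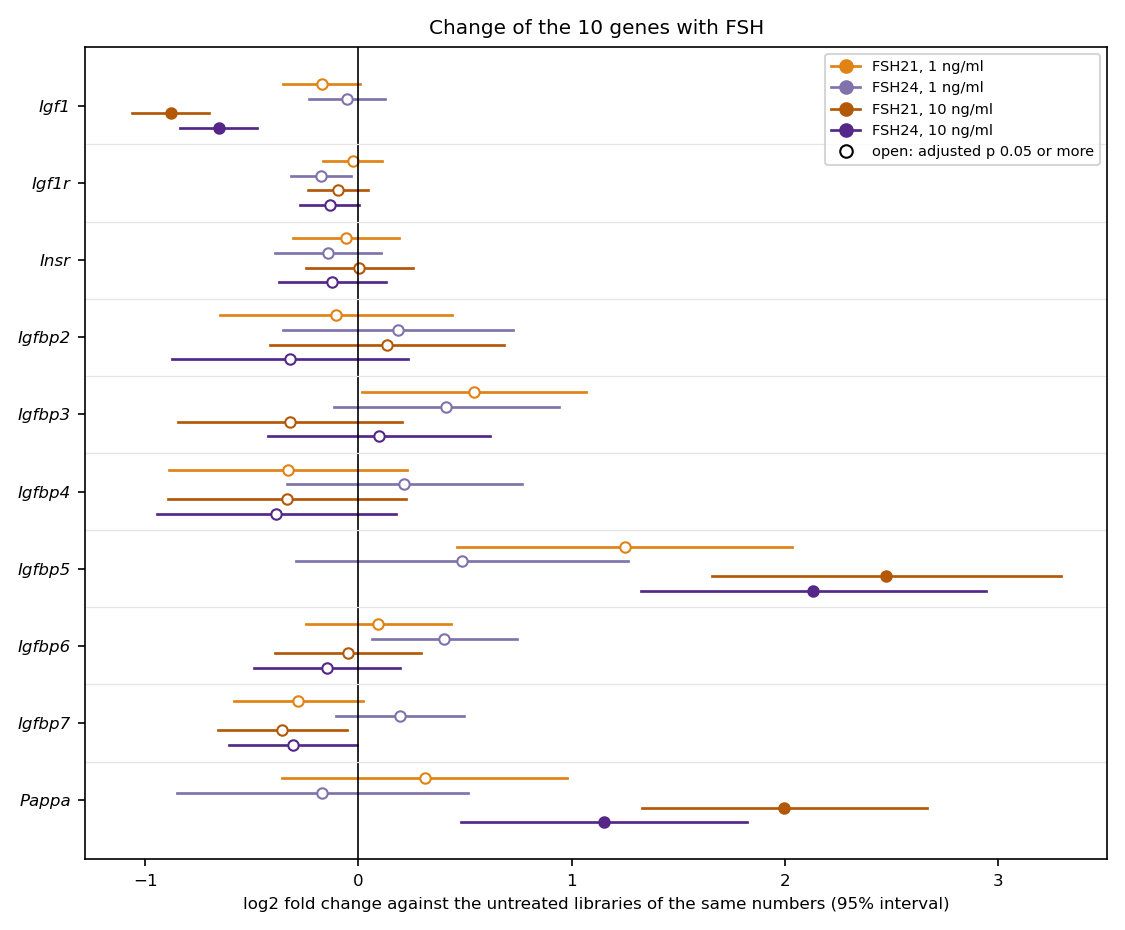
Log2 fold change of each gene against the untreated libraries of the same numbers, with 95% intervals from the edgeR fit. Filled points have an adjusted p under 0.05; they are Igf1, Igfbp5 and Pappa at 10 ng/ml with both forms, and no gene at 1 ng/ml.

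Igf1, the ligand gene (chr10:87858265-87937042, plus strand), fell to 0.543 of its control level with FSH21 at 10 ng/ml and to 0.635 with FSH24. It stood at 304, 327 and 296 CPM in the high-dose controls numbered 2, 3 and 4. With FSH21 at 10 ng/ml it was at 157, 178 and 167 CPM, and with FSH24 at 198, 188 and 202 CPM. All 6 treated libraries lay below all 3 controls, and the FSH21 libraries lay below the FSH24 libraries. The log2 fold change was -0.88 (SE 0.09, adjusted p = 3.27e-06) with FSH21 and -0.66 (SE 0.09, adjusted p = 9.34e-05) with FSH24, both from edgeR. An antisense transcript, Igf1os, overlaps the gene but shares 0 exon bases with it.

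The receptor genes were not called in any comparison. Igf1r, the gene of the IGF1 receptor, was at 322, 369 and 341 CPM in the high-dose controls, at 316, 335 and 315 CPM with FSH21 at 10 ng/ml and at 298, 321 and 322 CPM with FSH24. The FSH24 libraries all lay just below the controls, with a log2 difference of -0.14 and a 95% interval of -0.27 to 0.00 (edgeR, adjusted p = 0.259). Insr, the gene of the insulin receptor, was at 69.0, 94.0 and 89.6 CPM in the controls, at 78.9, 96.7 and 77.4 CPM with FSH21 and at 67.8, 82.8 and 81.4 CPM with FSH24. Its groups overlapped at 10 ng/ml, and its log2 differences were 0.00 (95% interval -0.25 to 0.25) with FSH21 and -0.12 (-0.37 to 0.13) with FSH24.

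Igfbp5, which encodes a secreted binding protein that also attaches to extracellular matrix, rose 5.56-fold with FSH21 at 10 ng/ml and 4.39-fold with FSH24. Its control levels were 547, 395 and 281 CPM. They were 2631, 2082 and 2079.7 CPM with FSH21 and 1781, 1786 and 1794 CPM with FSH24. Library 2 was the highest of the controls, the 3 FSH24 libraries lay close together, and every treated library stood far above every control. The log2 fold changes were 2.47 (SE 0.38, adjusted p = 0.000866) and 2.13 (SE 0.37, adjusted p = 0.00303) in edgeR. Igfbp2, the neighbour of Igfbp5 and a high-affinity binding protein gene, was at 10.5 to 14.1 CPM in the controls and was not called.

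The other 5 binding protein genes were not called at 10 ng/ml in the test described above, although Igfbp2 and Igfbp7 were called in some of its variants. Igfbp2 was at 12.1 to 14.96 CPM with FSH21 and 6.35 to 14.7 CPM with FSH24 at 10 ng/ml, with log2 differences of 0.13 and -0.32. Without FSH24 library 3, the highest of its group, the FSH24 difference of Igfbp2 was -0.76 and was called (adjusted p = 0.0405). Igfbp3, whose product is the main IGF carrier of serum, was at 6.55 to 9.18 CPM in the controls, 4.24 to 8.31 CPM with FSH21 and 6.89 to 10.6 CPM with FSH24, and these ranges overlapped. Igfbp6, whose product prefers IGF2, was at 8.75 to 9.26 CPM in the controls, 7.61 to 9.59 CPM with FSH21 and 7.95 to 8.60 CPM with FSH24. For these 3 weakly expressed genes the 95% intervals at 10 ng/ml reached from -0.87 to 0.68 on the log2 scale, both ends in Igfbp2. Changes within these intervals may have been missed with 3 libraries a group.

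Igfbp4, the gene of the binding protein that PAPP-A cuts most readily, was at 36.4, 66.6 and 60.3 CPM in the controls, at 32.8, 50.9 and 45.5 CPM with FSH21 and at 27.8, 49.7 and 47.7 CPM with FSH24. Igfbp7, the gene of the weakly binding member of the family, was at 145, 208 and 204 CPM in the controls, at 124, 149 and 162 CPM with FSH21 and at 127, 171 and 153 CPM with FSH24. In both genes library 2 was the lowest of all 3 groups, and the groups overlapped through control library 2 alone. The log2 difference of Igfbp7 was -0.36 with FSH21 (SE 0.14, adjusted p = 0.141) and -0.31 with FSH24 (SE 0.14, adjusted p = 0.231) in edgeR. With the library number as a block Igfbp7 was called with FSH21 (-0.35, adjusted p = 0.0115) and with FSH24 (-0.30, adjusted p = 0.0304). With all 6 untreated libraries as controls its FSH21 difference was -0.44 (adjusted p = 0.0241). Without control library 2 Igfbp7 was called with FSH21 (-0.52, adjusted p = 0.0167) and with FSH24 (-0.47, adjusted p = 0.0359). Igfbp4 was not called in any of these fits.

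The summed level of 10 markers of stroma and smooth muscle was also lowest in library 2 at 10 ng/ml. It was 2782 CPM in control library 2 against 4320.0 and 3769 CPM in control libraries 3 and 4, and it was 2606 to 3410.3 CPM with FSH21 and 2781 to 3885 CPM with FSH24 at 10 ng/ml. In each of these groups library 2 had the lowest sum, as it had the lowest Igfbp4 and Igfbp7. At 1 ng/ml the order was shared only in part. With FSH21 library 1 had the lowest sum (3240.1 CPM) and the lowest Igfbp7 (163 CPM). It had the highest Igfbp4 (46.3 CPM), in a narrow range from 44.8 CPM. With FSH24 library 6 had the highest sum (3967 CPM) and the highest Igfbp4 (78.1 CPM), but the lowest Igfbp7 (221 CPM). Among the low-dose controls library 5 had the lowest sum (3742 CPM), the lowest Igfbp4 (47.2 CPM) and the lowest Igfbp7 (187 CPM). Across the 18 libraries Igfbp4 and Igfbp7 had a Pearson correlation of 0.865 on the log2 scale, given as a description of libraries that share treatments. The part of these markers in the values of Igfbp4 and Igfbp7 was not tested. Igfbp7 also shares 85 exon bases with Polr2b on the opposite strand, and whether reads were counted by strand is not given in the sources used here.

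Pappa, the protease gene (chr4:65124174-65357509, plus strand), rose 3.99-fold with FSH21 at 10 ng/ml and 2.22-fold with FSH24, from a low level. It was at 1.64, 2.06 and 1.49 CPM in the high-dose controls, which is 33 to 45 counts a library. It was at 4.63, 8.77 and 7.33 CPM with FSH21 and at 3.37, 4.75 and 3.43 CPM with FSH24. No treated library overlapped the controls, and the spread was widest with FSH21. The log2 fold changes were 2.00 (SE 0.32, adjusted p = 0.000377) and 1.15 (SE 0.32, adjusted p = 0.0295) in edgeR. The FSH24 call was lost without control library 2 (adjusted p = 0.0925) or 4 (0.131) and without FSH24 library 2 (0.0506), 3 (0.112) or 4 (0.0568), with log2 values of 0.97 to 1.22.

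Levels of different genes were compared per kilobase (kb) of exon, as CPM divided by the summed exon length in GENCODE M21. In the high-dose controls the order was Igfbp7 (154 ± 29.0 CPM per kb), Igfbp5 (67.8 ± 22.2), Igf1 (31.2 ± 1.64), Igf1r (20.5 ± 1.39), Igfbp4 (12.3 ± 3.61), Igfbp6 (8.16 ± 0.256), Igfbp2 (6.50 ± 1.02), Insr (6.12 ± 0.972), Igfbp3 (2.59 ± 0.440) and Pappa (0.157 ± 0.0269; SD, n = 3 each). In this order the libraries of Igfbp4 overlapped with those of Igfbp6, and the libraries of Igfbp2 with those of Insr, while all other neighbours were apart. With FSH21 at 10 ng/ml Igfbp5 was first at 377 ± 52.9 CPM per kb and Igfbp7 second at 120 ± 15.8. With FSH24 they stood at 298 ± 1.10 and 124 ± 18.1 CPM per kb. Igf1, which had been above Igf1r in the controls, was at 16.9 ± 1.07 CPM per kb with FSH21 against 19.2 ± 0.657 for Igf1r. With FSH24 the mean of Igf1 stayed above that of Igf1r, at 19.8 ± 0.755 against 18.7 ± 0.824 CPM per kb, and their libraries overlapped.

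The makeup of the transcripts of the 6 binding protein genes shifted to Igfbp5. These include Igfbp7, whose product binds IGFs only weakly and which was the largest part in the high-dose controls (154 CPM per kb). The shares below depend on counting it, and shares without it were not computed. Summed over the 6 binding protein genes the level was 251 ± 17.1 CPM per kb in the high-dose controls, 524 ± 35.2 with FSH21 at 10 ng/ml and 447 ± 23.2 with FSH24 (SD, n = 3). Igfbp5 made up 27.2 ± 10.0% of that sum in the controls, 71.7 ± 5.09% with FSH21 and 66.7 ± 3.37% with FSH24. Without Igfbp5 the sum was 183 ± 32.3 CPM per kb in the controls, 147 ± 17.9 with FSH21 and 149 ± 22.7 with FSH24, and those ranges overlapped. Igf1 transcript amounted to 12.4 ± 0.451% of the binding protein sum in the controls, 3.25 ± 0.398% with FSH21 and 4.44 ± 0.353% with FSH24. These are transcript ratios described without a test, and proteins were not measured.

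**Figure D3:**
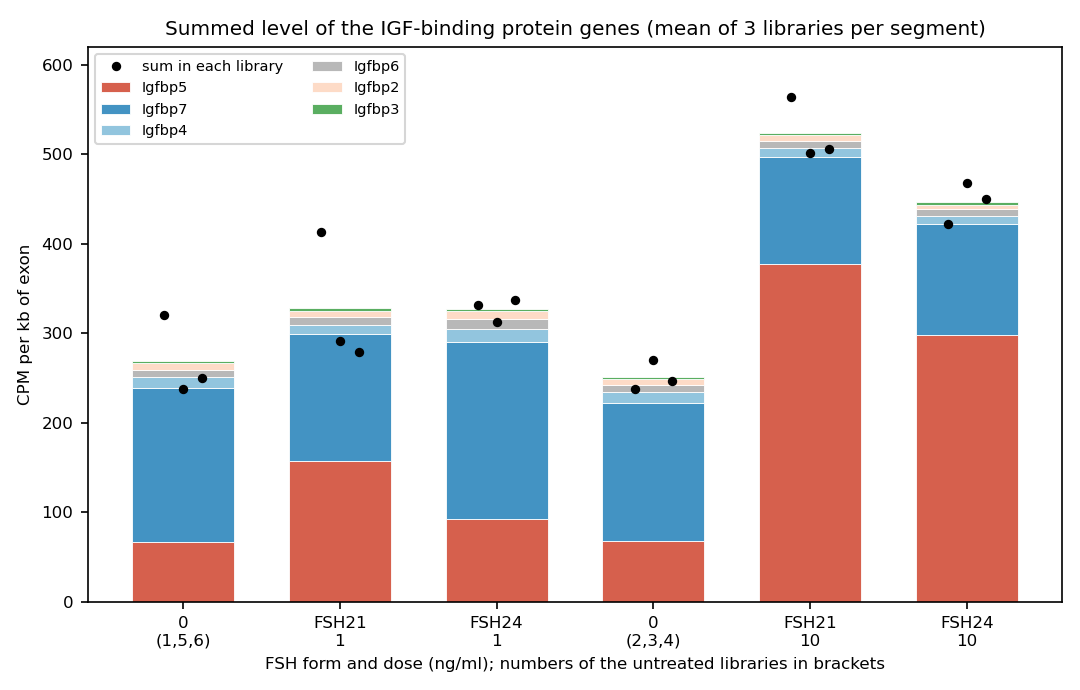
Level of the 6 binding protein genes in CPM per kb of exon (vertical axis, linear from 0), stacked as means of 3 libraries per group, with the sum in each library as black points. Igfbp5 is 27.2% of the sum in the high-dose controls and 71.7% (FSH21) and 66.7% (FSH24) of it at 10 ng/ml.

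At 1 ng/ml 0 of the 10 genes were called with either form in edgeR's test. DESeq2 also called 0 with either form, and 2 genes with FSH21 (Igfbp3 and Igfbp5) and 2 with FSH24 (Igf1r and Igfbp6) had an unadjusted p under 0.05. Over all genes 0.128% were called with FSH21 and 0% with FSH24 at this dose. An unadjusted p under 0.05 was found for 1370 genes with FSH21 and 1119 with FSH24. With FSH24 edgeR called 0 genes and DESeq2 called 1. The FSH21 share is 24 genes, and the number called was 5, 21 and 0 without low-dose control 1, 5 or 6 and 2, 0 and 18 without FSH21 library 1, 5 or 6. The median log2 fold change of the 10 genes was -0.04 with FSH21 and 0.19 with FSH24, beside 0.00 over all genes in both.

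Igfbp5 was at 546, 336 and 310.5 CPM in the low-dose controls numbered 1, 5 and 6 and at 1486, 672 and 673 CPM with FSH21 at 1 ng/ml. The FSH21 libraries did not overlap with the controls, but library 1 stood far above the other two, and control library 1 was also the highest of its group. The log2 difference was 1.25 (95% interval 0.46 to 2.04, edgeR adjusted p = 0.348), and without FSH21 library 1 it was 0.76 (adjusted p = 0.820). With FSH24 at 1 ng/ml Igfbp5 was at 660, 339 and 673 CPM and overlapped with the controls, with a log2 difference of 0.49 (95% interval -0.29 to 1.27).

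Igf1 was at 332, 326 and 334 CPM in the low-dose controls, at 271, 312 and 297 CPM with FSH21 at 1 ng/ml and at 273, 369 and 314 CPM with FSH24. The FSH21 libraries lay below the controls by a log2 difference of -0.17 (95% interval -0.35 to 0.01, edgeR adjusted p = 0.709), and the FSH24 libraries lay on both sides of them. Pappa was at 1.92, 2.72 and 1.78 CPM in these controls, at 1.72, 2.76 and 3.48 CPM with FSH21 and at 1.14, 2.14 and 2.40 CPM with FSH24, and all groups overlapped. Igf1r was at 341, 372 and 391 CPM in the controls and at 329, 320.1 and 327 CPM with FSH24, below them by -0.18 on the log2 scale (adjusted p = 0.815). Igfbp3 was at 5.67 to 6.89 CPM in the controls and 7.08 to 10.3 CPM with FSH21, above them by 0.54 (adjusted p = 0.668). The remaining genes at this dose, Igfbp2, Igfbp4, Igfbp6, Igfbp7 and Insr, had log2 differences between -0.33 and 0.40.

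In the main edgeR fit Igf1 was the 1 gene of the 10 whose response was called different between the doses, with each form. Its FSH21 effect was -0.17 at 1 ng/ml and -0.88 at 10 ng/ml, a difference of -0.71 on the log2 scale (SE 0.12, edgeR adjusted p = 0.0155). Its FSH24 effect was -0.05 and -0.66, a difference of -0.60 (SE 0.12, adjusted p = 0.0123). Over all genes 0.272% were called for this difference with FSH21 and 2.45% with FSH24. For Igfbp5 the difference between doses was 1.23 with FSH21 (95% interval 0.13 to 2.33, adjusted p = 0.651) and 1.65 with FSH24 (0.54 to 2.75, adjusted p = 0.132). For Pappa it was 1.69 (0.75 to 2.63, adjusted p = 0.183) and 1.32 (0.37 to 2.27, adjusted p = 0.154). DESeq2 called the FSH21 difference of Pappa (adjusted p = 0.0387) and the FSH24 difference of Igfbp5 (0.0395). That of Pappa with FSH21 was also called in edgeR without a count filter (0.0437). With the library number as a block edgeR called Pappa with FSH21 (0.0165), and Igfbp5 (0.0291), Igfbp7 (0.0243) and Pappa (0.0258) with FSH24. Dose goes together with the set of library numbers, so the number set and the dose cannot be told apart here beyond the use of separate controls.

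No gene of the 10 was called different between the glycoforms. At 10 ng/ml 0 were called by edgeR and 0 by DESeq2, and 2, Igf1 and Pappa, had an unadjusted p under 0.05. Over all genes 0% were called at this dose (0 in edgeR, 5 in DESeq2, 410 with an unadjusted p under 0.05). FSH21 minus FSH24 was 0.84 for Pappa (95% interval 0.21 to 1.48), -0.22 for Igf1 (-0.41 to -0.04) and 0.34 for Igfbp5 (-0.43 to 1.12) on the log2 scale, each with an adjusted p of 1. The FSH21 and FSH24 libraries did not overlap for Igf1 and Igfbp5, while for Pappa FSH21 library 2 (4.63 CPM) lay below FSH24 library 3 (4.75 CPM). How often groups of 3 libraries lie apart over all genes is not given, here or for the other comparisons. Such separations are descriptions only. A failed call here does not show that the forms act alike.

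At 1 ng/ml 0 of the 10 genes were called between the forms by edgeR and 1, Igfbp7, by DESeq2 (adjusted p = 0.0282), and 2, Igf1r and Igfbp7, had an unadjusted p under 0.05. Over all genes 0.0107% were called, which is 2 genes, while 1770 genes had an unadjusted p under 0.05. Igfbp7 was at 163, 183 and 168 CPM with FSH21 and at 228, 267 and 221 CPM with FSH24 at 1 ng/ml, with the low-dose controls between and across them at 233, 187 and 205 CPM. The groups of the forms did not overlap, and FSH21 minus FSH24 was -0.48 (95% interval -0.78 to -0.18, edgeR adjusted p = 0.274). Igfbp4 showed the same order, at 44.8 to 46.3 CPM with FSH21 and 59.5 to 78.1 CPM with FSH24, with a difference of -0.54 (-1.10 to 0.01). The stroma and smooth muscle sum was 3240.1 to 3955 CPM with FSH21 and 3623 to 3967 CPM with FSH24 at this dose, and its part in these 2 genes was not tested.

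The untreated sets did not differ in any of the 10 genes by edgeR or DESeq2, with 0 under an unadjusted p of 0.05. Over all genes 0% were called between them (0 in edgeR, 1 in DESeq2, 1020 with an unadjusted p under 0.05). The log2 differences of the high-dose from the low-dose controls lay between -0.30 (Pappa) and 0.40 (Igfbp3), with 0.04 for Igfbp5 and -0.10 for Igf1.

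Other parts of the IGF system were read from lists drawn up by role. Their counts at 10 ng/ml stand beside the 10.2% (FSH21) and 8.42% (FSH24) of all genes tested that were called at that dose. Of 17 further ligand, carrier, receptor and protease genes 11 were tested, and at 10 ng/ml 1 rose and 1 fell with each form. The falling gene was Htra1, a serine protease that cuts IGFBP5, at 667, 519.7 and 598 CPM in the high-dose controls, 364, 387 and 365 CPM with FSH21 and 373, 446 and 385 CPM with FSH24. Its log2 fold changes were -0.68 (edgeR adjusted p = 8.79e-05) and -0.57 (adjusted p = 0.00067), with no overlap. The rising gene was Igf2r, the receptor that clears IGF2, at 185 CPM in the controls, 233 CPM with FSH21 and 235 CPM with FSH24, with log2 fold changes of 0.33 and 0.35. The call of Igf2r was lost without control library 2 (adjusted p = 0.192 with FSH21, 0.187 with FSH24) or 4 (0.0996 and 0.0995), and without any single treated library (0.0537, 0.154 and 0.0679 for FSH21 libraries 2, 3 and 4, and 0.0507, 0.0865 and 0.116 for those of FSH24). Igf2, the other IGF ligand gene, was at 0.880 to 2.92 CPM in the 18 libraries and not called. Stc1 and Stc2, which encode inhibitors of PAPP-A, were not called at 61.5 and 24.1 CPM in the controls, and Pappa2, a related protease gene, was below the count filter. The median log2 change of this list was -0.235 with FSH21 and -0.05 with FSH24, beside 0.00 over all genes.

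Of 20 genes that act directly downstream of the insulin and IGF1 receptors 19 were tested, and 3 rose and 3 fell with FSH21 at 10 ng/ml and 1 rose and 3 fell with FSH24. Pik3r1, the gene of the main regulatory subunit of phosphoinositide 3-kinase, was at 869, 908 and 919 CPM in the high-dose controls, 393, 346 and 355 CPM with FSH21 and 482, 407 and 492 CPM with FSH24. That is a log2 fold change of -1.30 (edgeR adjusted p = 9.41e-08) and -0.96 (adjusted p = 5.5e-06). Grb14, an adaptor that binds and restrains the insulin receptor, fell from 178 CPM to 69.7 CPM with FSH21 (-1.35, adjusted p = 3.61e-07) and to 83.5 CPM with FSH24 (-1.09, adjusted p = 5.66e-06). Irs2, a docking protein of both receptors, fell from 41.6 CPM to 21.6 CPM (-0.95, adjusted p = 0.000181) and 25.1 CPM (-0.73, adjusted p = 0.00205). In contrast Pik3r3, another regulatory subunit, rose from 56.6 CPM to 87.8 CPM (0.63, adjusted p = 0.000219) and 95.5 CPM (0.75, adjusted p = 6.81e-05). The genes that fell so include Irs2, which passes the signal on, and Grb14, which restrains it. Irs1, the related docking protein gene, and Grb10, the adaptor gene related to Grb14, were not called. With the library number as a block Grb10 was called with FSH21 (-0.28, adjusted p = 0.00898) and with FSH24 (-0.27, adjusted p = 0.015).

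The other calls of that list were smaller, and in edgeR's test they passed the threshold with FSH21. Enpp1, an inhibitor of the insulin receptor, rose from 12.9 to 17.1 CPM (0.41, edgeR adjusted p = 0.0156), and Akt2, a kinase of the pathway, from 153 to 176 CPM (0.20, adjusted p = 0.0239). The Enpp1 call was lost without a count filter (adjusted p = 0.0539), without control library 3 (0.11) or FSH21 library 2 (0.0542) or 3 (0.0709). The Akt2 call was lost without a count filter (0.117), with the libraries of these numbers fitted alone (0.0626), without control library 3 (0.124) or 4 (0.161), and without any single FSH21 library (0.0606 to 0.0989). With FSH24 Enpp1 stood at 0.33 (adjusted p = 0.0583) and Akt2 at 0.16 (adjusted p = 0.0912). That of Enpp1 was called by DESeq2 (adjusted p = 0.0476), against all 6 untreated libraries (0.0261) and without control library 4 (0.0487), and that of Akt2 against all 6 untreated libraries (0.031). The difference between the forms was 0.08 for Enpp1 and 0.04 for Akt2, neither called. The list's median log2 change was -0.02 with FSH21 and 0.02 with FSH24. At 1 ng/ml no gene of it was called in edgeR's test with either form. With FSH21 Pik3r1 stood at -0.35 (adjusted p = 0.219), Grb14 at -0.44 (adjusted p = 0.142) and Irs2 at -0.56 (adjusted p = 0.142), each below the range of its controls. DESeq2 called all 3 (adjusted p = 0.0339, 0.0107 and 0.017), and edgeR called Grb14 without FSH21 library 6 (-0.60, adjusted p = 0.022). Between the forms at 1 ng/ml Grb14 was at 143 CPM with FSH21 and 199.6 CPM with FSH24, a log2 difference of -0.48 that edgeR did not call (adjusted p = 0.173), while DESeq2 did (0.00426), as did edgeR without a count filter (0.0282) or without FSH21 library 6 (0.0159).

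Between the doses Pik3r1 and Grb14 were called different with each form, as Igf1 was. The difference was -0.95 (edgeR adjusted p = 0.00211) with FSH21 and -0.84 (adjusted p = 0.00244) with FSH24 for Pik3r1, and -0.91 (adjusted p = 0.0125) and -1.13 (adjusted p = 0.000759) for Grb14. Htra1 (-0.65, adjusted p = 0.0123) and Pik3r3 (0.78, adjusted p = 0.00462) were called different between doses with FSH24, and with FSH21 they stood at -0.58 (adjusted p = 0.0754) and 0.36 (adjusted p = 0.526). The FSH21 difference of Htra1 was called by DESeq2 (-0.59, adjusted p = 0.00273), without a count filter (0.00891) and without control library 3 (-0.68, 0.0312).

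Growth hormone drives Igf1 transcription in liver through its receptor and STAT5B. Of 6 genes of that axis, all tested, 1 rose and 1 fell with each form at 10 ng/ml, with medians of -0.06 and 0.12. Ghr, the receptor gene, was at 26.7, 42.0 and 32.1 CPM in the high-dose controls, 19.1, 21.8 and 20.1 CPM with FSH21 and 24.4, 22.7 and 24.3 CPM with FSH24. Its log2 fold changes were -0.72 (edgeR adjusted p = 0.00234) and -0.50 (adjusted p = 0.0324), and the FSH24 call was lost without control library 3 (-0.32, adjusted p = 0.156) or 4 (0.0543) or FSH24 library 2 (0.0617), 3 (0.0994) or 4 (0.0783). Stat5b rose by 0.33 (adjusted p = 0.00655) and 0.27 (adjusted p = 0.0254). Its FSH21 call was lost without control library 3 (0.0618) or FSH21 library 2 (0.0536). Its FSH24 call was lost against all 6 untreated libraries (0.17, adjusted p = 0.173), without control library 3 (0.20, 0.163) or 4 (0.12), and without FSH24 library 2 (0.0533), 3 (0.0695) or 4 (0.141).

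Of 8 genes of CCN and other proteins with an IGF-binding type of domain 7 were tested, and at 10 ng/ml 0 rose and 2 fell with FSH21 and 0 rose and 1 fell with FSH24, with medians of -0.42 and -0.34. Kazald1, which encodes a secreted protein with such a domain, was at 432, 446 and 509 CPM in the high-dose controls, 141, 201 and 181 CPM with FSH21 and 181, 227 and 229 CPM with FSH24. Its log2 fold changes were -1.41 (edgeR adjusted p = 0.000297) and -1.12 (adjusted p = 0.00208). Ccn2, the connective tissue growth factor gene, fell from 99.0 to 62.7 CPM with FSH21 (-0.66, adjusted p = 0.0368). Its call was lost without a count filter (0.0955), without control library 2 (0.0992) or 3 (0.107) or FSH21 library 2 (0.0706) or 4 (0.149). With FSH24 it was at 66.0 CPM (-0.58, adjusted p = 0.0722), below every control, which was called by DESeq2 (0.00626), with the libraries of these numbers fitted alone (0.0452) and against all 6 untreated libraries (0.0157). Of the 3 genes of the Igf2 messenger RNA-binding proteins, all tested, 0 were called at either dose.

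**Figure D4:**
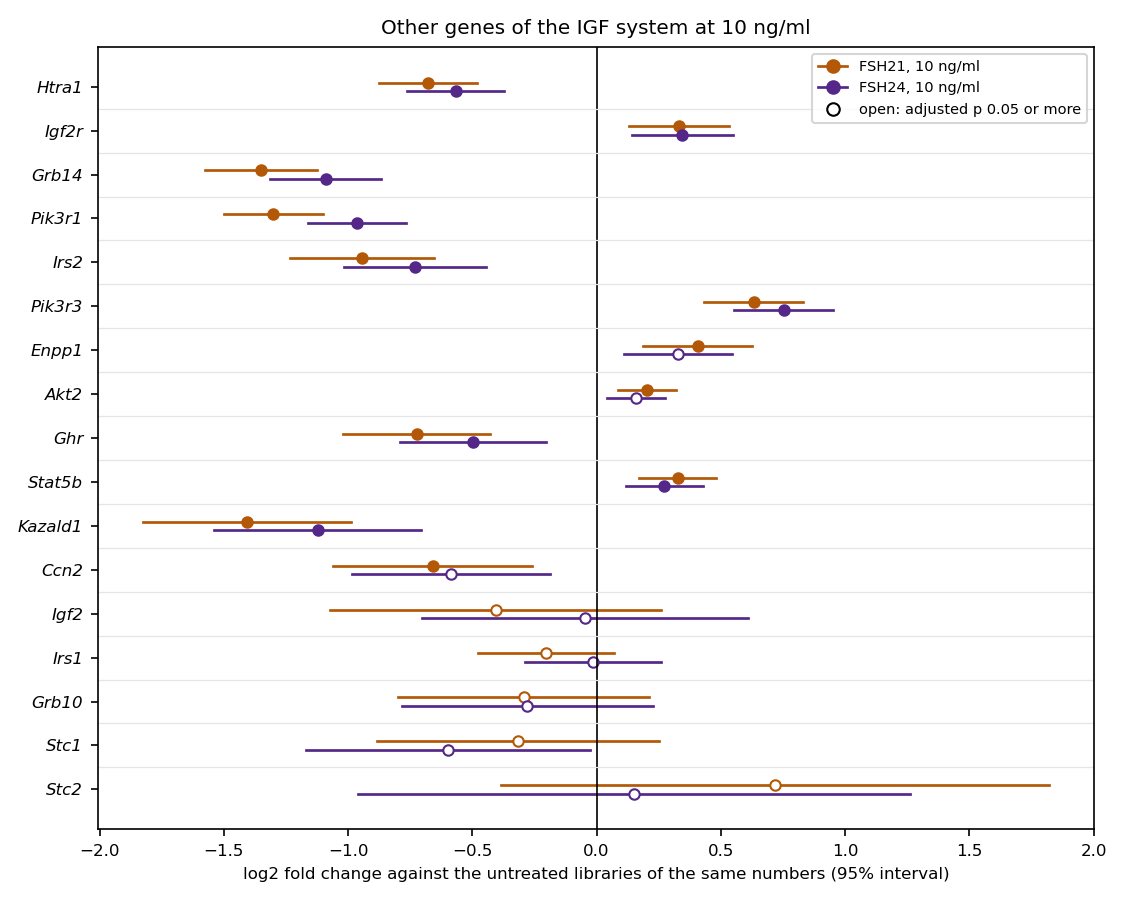
Log2 fold change of 17 further genes of the IGF system with FSH21 and FSH24 at 10 ng/ml against the same high-dose controls, with 95% intervals from the edgeR fit; filled points have an adjusted p under 0.05. Pik3r1, Grb14, Irs2, Htra1, Ghr and Kazald1 lie below 0 and Pik3r3, Igf2r and Stat5b above 0 with both forms.

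The genes whose log2 CPM followed the 3 changed genes most closely over the 18 libraries are given as a description, since the high-dose libraries shape all these correlations. For Igf1 they were Fam185a (Pearson r = 0.978), C1qtnf7 (0.978) and Vps33a (0.973). For Igfbp5 they were Slc25a30 (0.980), Flrt1 (0.964) and Ints4 (0.964), and for Pappa they were Scara5 (0.945), Nsdhl (0.925) and B4galt5 (0.919). Among the 10 genes themselves Igf1 ran against Igfbp5 (r = -0.917) and Pappa (r = -0.768).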

How the data were processed

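Polyadenylated RNA of 18 follicle libraries was read on 4 lanes each, which gives the 72 deposited samples. The authors deposited 1 table of expected counts per gene, named as RSEM values by its column headers, with 1 column per library. STAR 2.7, bcl2fastq, FastQC and the build mm10 are named in the submitters' processing notes. The RSEM version, annotation and strand setting are not given in the sources used here. Untreated column 4 matched its titles by number and index. Of the non-zero expected counts 33.9% were not whole, and all were rounded to whole numbers.

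Genes passing edgeR's filterByExpr (minimum count 10, by group) were tested with edgeR 4.0.16 (R 4.3.3): TMM scaling, quasi-likelihood test with robust estimation, all 18 libraries in 6 groups without a block, Benjamini-Hochberg adjustment over 18727 genes. The biological coefficient of variation was 0.135. Unless another tool is named, adjusted p-values are from this fit, and 95% intervals follow from its standard errors. CPM are TMM-scaled, and correlations used log2 CPM with a prior count of 2. The fit was tested on simulated counts first.

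Same-numbered libraries of the FSH21 10 ng/ml group and its controls deviated together (correlations of 0.193, 0.206 and 0.126), so fits with the number as a block are given beside that comparison. Those of the other comparisons did so to a varying degree. Their block fits are given with the processing results below, and some of them beside the genes as well. Alternatives were DESeq2 1.42.0, other scalings, no filter, the block, fewer or more controls and leaving out each library. The 10 genes, the lists and the tests were chosen with earlier results of these data known. Named from the lists were up to 6 called genes each, by size of change, and the genes that define a role. 1 gene of a list is not reported here, and the list's counts leave it out. Marker lists covered granulosa, oocyte, surface epithelium, theca, endothelium, stroma and smooth muscle, red blood cells and immune cells.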

Additional observations from a re-analysis of the deposited data

Results flagged for a closer look

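The response of Igf1 to each form differed between the doses in a test of that difference itself. The effect of FSH21 at 10 ng/ml minus that at 1 ng/ml was -0.71 on the log2 scale (-0.88 against -0.17, edgeR adjusted p = 0.0155), and the same difference for FSH24 was -0.60 (-0.66 against -0.05, adjusted p = 0.0123). In each of the 17 alternatives the difference was called, with values of -0.76 to -0.66 for FSH21 and -0.71 to -0.50 for FSH24. All 6 libraries at 10 ng/ml lay below their 3 controls. The doses used different library numbers, which cannot be told apart from dose. Among the 6 untreated libraries, 0 of the 10 genes had a library apart from the rest by Dixon's criterion.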

How the results depend on the processing

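At 10 ng/ml the calls of Igf1 and Igfbp5 with both forms and of Pappa with FSH21 held in all 13 alternatives. The FSH24 call of Pappa held in 8 of 13. Of the 10 genes, the count called between the forms at 1 ng/ml was 0 in edgeR but 1 (Igfbp7) with DESeq2 and 1 with the replicate block (adjusted p = 0.0169). The count for the dose difference was 1, against 2 without a count filter, 2 with DESeq2 and 2 with the block for FSH21 (Pappa added), and 2 with DESeq2 (Igfbp5 added) and 4 with the block (Igfbp5, Igfbp7 and Pappa added) for FSH24. With the block Igfbp7 (-0.30, adjusted p = 0.0304), Grb10 (-0.27, 0.015), Ccn2 (-0.57, 0.00114) and Enpp1 (0.33, 0.041) were also called with FSH24 at 10 ng/ml, as were Grb14 (0.00337), Pik3r1 (0.0116), Irs2 (0.022), Kazald1 (0.0194) and Ccn2 (0.0155) with FSH21 and Grb14 between the forms (0.00365) at 1 ng/ml. For the dose difference the block added Kazald1 (0.0012) with FSH21, and Igf2r (0.00822), Stat5b (0.0284), Kazald1 (0.000209) and Grb10 (0.0228) with FSH24. The number may mark a pairing in each comparison within a set of numbers, and the main fit does not use it. Same-number correlations were 0.0496 to 0.235 over 18 pairs, each library being most like its own number. The labels do not say what the number stands for. No scaling moved the median of all genes by over 0.1 (log2). Directions were followed for the 10 genes and those named from the IGF lists, and no scaling turned that of a called gene among them.

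Counts over all genes moved more. The 24 genes called with FSH21 at 1 ng/ml became 59 without a filter, 111 with DESeq2, 226 with the block, 1 from 9 libraries and 57 against all untreated libraries, and for FSH24 0 became 1 without FSH24 library 5. At 10 ng/ml 1906 (FSH21) became 2898 against all untreated libraries and 1250 without control 4, and 1577 (FSH24) became 2547 with the block and 982, 1029 and 995 without control 4, FSH24 library 2 or FSH24 library 4. Between the forms 2 became 65 without a filter, 204 with DESeq2, 177 with the block, 1 from 9 libraries and 0 to 7 without any single library at 1 ng/ml, and 0 became 1 without FSH21 library 3 at 10 ng/ml. For the dose difference 51 became 102, 167 and 229 (no filter, DESeq2, block) with FSH21 and 20 to 31 without any of 9 libraries, and 458 became 816 with DESeq2, 1180 with the block and 217 to 302 without any of 7 libraries with FSH24. Between the untreated sets 0 became 1 without low-dose control 1.

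With 3 libraries a group, changes smaller than the intervals given were not detectable, most of all in Igfbp2, Igfbp3, Igfbp6 and Pappa. The block could not be fitted for the comparison of the untreated sets. Intervals cover the spread between these libraries only.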

Other observations

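The lists of cell type markers give the setting of the IGF genes at 10 ng/ml. Their counts stand beside the 10.2% (FSH21) and 8.42% (FSH24) of all genes tested that were called at that dose. Of 12 granulosa markers 5 rose and 0 fell with FSH21 and 3 rose and 0 fell with FSH24, by edgeR. Kitl, the KIT ligand gene, went from 135 CPM to 422 CPM with FSH21 (log2 fold change 1.64, adjusted p = 9.21e-10) and 391 CPM with FSH24. The summed level of the granulosa markers was 7068 to 7949 CPM with FSH21 and 6542 to 7547 CPM with FSH24, beside 5465 to 6944 CPM in the high-dose controls. Of 8 theca and steroidogenic markers 2 rose with each form. With FSH21 these were Star, which moves cholesterol into mitochondria (8.0 to 22.7 CPM), and Cyp17a1, an enzyme of androgen synthesis (1.04 to 4.88 CPM). Of 5 tested surface epithelium markers 1, Krt8, rose with each form, from 36.8 to 72.0 CPM with FSH21. These markers were named after their values were seen.

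Of 10 oocyte, 10 stroma and smooth muscle, 6 endothelial and 2 tested immune markers 0 were called with either form at 10 ng/ml. Over all genes tested 10.2% were called with FSH21 and 8.42% with FSH24. No red blood cell marker passed the count filter. The oocyte sum was 3992 to 4505 CPM with FSH21 and 4012 to 4287 CPM with FSH24, all below the 4548 to 4792 CPM of the high-dose controls. The low-dose controls, also untreated but of other library numbers, stood at 3757 to 4375 CPM. The part of any of these markers in the changes of Igf1, Igfbp5 and Pappa was not tested.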
